A study of Mus musculus with 6 samples.

Results

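The genes described are 10 transcription factors that give pancreatic beta cells their identity: Pdx1, Nkx6-1, Pax6, Mnx1, Foxa2, Glis3, Insm1, Neurod1, Nkx2-2 and Isl1. They were taken by name, as all probe sets whose single gene symbol is one of these, which gave 18 of the 45101 probe sets on the array, for 10 of 18194 named genes. The names were chosen with earlier results of these data known, so counts of the 10 beside all genes are descriptions only. The tested MIN6 cells had been infected with an adenovirus carrying miR-7a2 (AdmiR7a, 2 arrays) or miR-7b (AdmiR7b, 1 array), and their control with the same vector carrying green fluorescent protein (AdGFP, 1 array). MIN6 is an insulin-secreting line derived from mouse beta cells. All 4 cultures were infected at a multiplicity of 250 and kept for 48 h in DMEM with 4.5 g/l glucose, Glutamax, 2% serum and 2-mercaptoethanol. The islets, on a C57BL/6 background, came from mice whose miR-7a2 gene had been removed in beta cells with loxP sites and Cre (KO, 1 array), and from mice of wild-type genotype (WT, 1 array). The driver of Cre, the age of the mice and the number of animals behind each islet array are not given in the sources used here, and islets hold other cell types in which miR-7a2 was not targeted. AdmiR7a is described as infected in duplicate, but separate cultures are not stated, so the spread between these arrays may be technical. The p-values measure only that spread and, where AdmiR7b is pooled with AdmiR7a, also the difference between the vectors.

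Beta cells are specified and kept by a network of such factors, which bind each other's genes as well as the insulin gene. Homeodomain proteins (Pdx1, Mnx1, Nkx6-1, Nkx2-2, Pax6 and the LIM-homeodomain protein Isl1) work in it with the forkhead protein Foxa2, the basic helix-loop-helix protein Neurod1 and the zinc-finger proteins Insm1 and Glis3. A microRNA lowers its targets by pairing its seed, bases 2 to 8, with sites mostly in their 3' untranslated regions, and miR-7 is one of the most abundant microRNAs of islets.

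The mature miR-7 sequences are shown because they are the agents that separate the arrays, with the seed in capitals, 5' to 3', from RefSeq (GRCm38.p6).
mmu-miR-7a-5p: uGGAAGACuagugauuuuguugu
mmu-miR-7b-5p: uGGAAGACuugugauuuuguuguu
Both carry the seed GGAAGAC, whose perfectly paired DNA site reads GTCTTCC. They differ by A10U, counted from 1 at the 5' end of miR-7a, and by the length, 23 bases for miR-7a and 24 for miR-7b. The copy of miR-7a removed in the KO islets is that of Mir7-2, at chr7:78888295-78888317 on the plus strand. Mature miR-7 was not measured on these arrays, so neither its gain nor its loss could be checked, and transcript sequences of the 10 genes were not used here.

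The values are log2 probe set intensities made with GCRMA, on a scale that ran from 2.17 to 16.4 over the table. Each gene was tested on its probe set with the highest mean, if that mean was at least 4, and all 10 genes passed in both systems. The AdmiR7a arrays differed from each other by an SD of 0.194 (log2) across 10368 genes. The MIN6 arrays carried beta-cell transcripts, with Ins2 at 15.86 and 15.69 with AdmiR7a and 15.91 with AdmiR7b, against 15.76 with AdGFP, but 1 of 6 named beta-cell markers, the glucose transporter gene Slc2a2, lay below 4 on all 4. All 7 named acinar, 5 immune and 5 stellate markers lay below 4 on every MIN6 array, as did 3 of 4 named ductal markers. The other ductal marker, Krt7, read 11.8 with AdGFP. Both MIN6 and islets carried alpha-cell and delta-cell hormone transcripts, but the markers Irx2 (alpha) and Hhex (delta) lay below 4 on every MIN6 array. The alpha-cell marker Irx1 read 5.21 with AdGFP and on both islet arrays. The glucagon gene Gcg read 12.71 and 12.93 with AdmiR7a and 12.83 with AdmiR7b, against 13.35 with AdGFP, and fell by 0.53 (limma adjusted p = 0.0423). Gcg was higher in islets, at 16.28 in KO and 16.38 in WT.

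With miR-7, 8 of the 10 genes fell and 0 rose in MIN6 cells, and all 10 were lower than AdGFP on each of the 3 miR-7 arrays. Across all 10368 genes tested, 11.9% fell and 14.3% rose, and 32.9% were lower on all 3 arrays. The 10 genes read between 8.65 and 14.17 with AdGFP, while all genes include weak ones down to a mean of 4. Shares among genes of like level were not worked out. The median difference of the 10 genes was -0.87 (log2), against 0.06 for all genes, of which 4.42% lay at or below the median of the 10. "Rose" and "fell" refer to limma with the 3 miR-7 arrays pooled against AdGFP, 2 residual degrees of freedom and p-values adjusted by Benjamini-Hochberg across every gene tested, with 0.05 as the threshold. The fit rests on the single AdGFP array, which is taken to vary like the others, and without any one of the 3 miR-7 arrays it called 0 genes, with adjusted p of the 10 between 0.0650 and 0.212 and all 10 still lower. With the mean of each gene's probe sets all 10 fell, and with the filter at 6 Insm1 also fell, making 9. Without the filter on low values, 2 of the 10 fell, Foxa2 (adjusted p = 0.0176) and Glis3 (adjusted p = 0.0467).

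**Figure D1:**
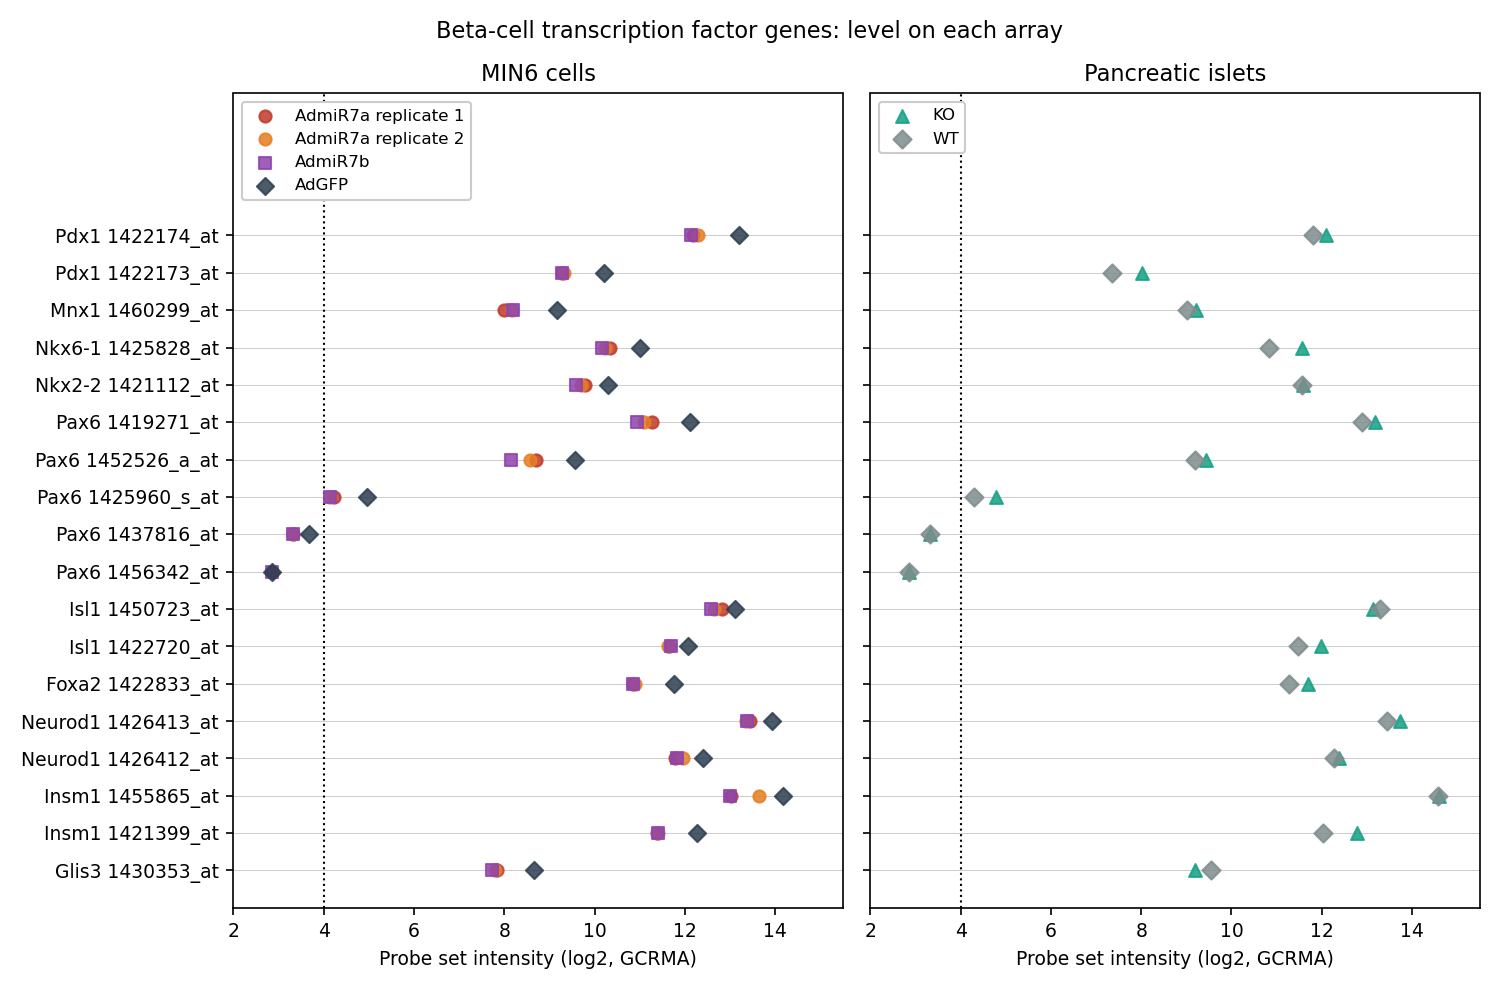
Log2 probe set intensity (x axis) of the 18 probe sets of the 10 genes (rows) on each array, MIN6 cells on the left and islets on the right; each point is 1 array and the dotted line is the filter at 4. The AdGFP diamond lies right of the 3 miR-7 points in every row above the filter. The miR-7 points are most spread for Insm1 1455865_at (SD 0.359), and for Isl1 1450723_at (SD 0.13) the spread is large beside a mean gap of 0.43.

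Pdx1, the master regulator of pancreas formation and of insulin transcription, read 12.18 and 12.30 with AdmiR7a and 12.13 with AdmiR7b, against 13.19 with AdGFP. The miR-7 arrays lay close together (SD 0.09, n = 3) about a full log2 unit below the control, and Pdx1 fell by 0.99 ± 0.10 (SE; limma adjusted p = 0.0137). Mnx1, which secures beta-cell fate against other islet fates, read 7.998 and 8.17 with AdmiR7a and 8.18 with AdmiR7b, against 9.17 with AdGFP. Mnx1 fell by 1.05 ± 0.11 (limma adjusted p = 0.0144), the largest difference of the 10. Nkx6-1, which keeps beta cells from turning to other endocrine types and supports insulin secretion, read 10.34 and 10.24 with AdmiR7a and 10.16 with AdmiR7b, against 11.00 with AdGFP. Nkx6-1 fell by 0.76 ± 0.10 (limma adjusted p = 0.0191). Nkx2-2, needed for beta-cell formation, read 9.78 and 9.70 with AdmiR7a and 9.58 with AdmiR7b, against 10.30 with AdGFP. It fell by 0.61 ± 0.11 (limma adjusted p = 0.0285), a smaller difference than those of Pdx1 and Mnx1.

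Among the factors that all islet endocrine cells use, Pax6, which drives hormone genes in several islet cell types, read 11.28 and 11.10 with AdmiR7a and 10.94 with AdmiR7b, against 12.11 with AdGFP. Pax6 fell by 1.002 ± 0.15 (limma adjusted p = 0.0235), and the AdmiR7b array was the lowest of the 3. Averaged over its 5 probe sets, 2 of them below 4 on every array, Pax6 stood at -0.65. Neurod1, an activator of the insulin gene, read 13.45 and 13.36 with AdmiR7a and 13.39 with AdmiR7b, against 13.92 with AdGFP. Neurod1 fell by 0.53 ± 0.08 (limma adjusted p = 0.0223), the smallest of the 8 falls. Isl1, required for the maturation of islet cells, read 12.83 and 12.65 with AdmiR7a and 12.57 with AdmiR7b, against 13.11 with AdGFP. Isl1 stood at -0.43 ± 0.13 (limma adjusted p = 0.0813) and did not pass. Insm1, a repressor needed for endocrine differentiation, read 13.02 and 13.63 with AdmiR7a and 13.01 with AdmiR7b, against 14.17 with AdGFP. The second AdmiR7a array stood apart from the other miR-7 arrays, and Insm1 (-0.95 ± 0.30, limma adjusted p = 0.0878) did not pass despite a mean difference near that of Pdx1.

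Foxa2, which opens chromatin at pancreatic genes including Pdx1, read 10.85 and 10.89 with AdmiR7a and 10.85 with AdmiR7b, against 11.76 with AdGFP. Its 3 miR-7 values had the smallest SD (0.0268) among the probe sets that stand for the 10 genes, and Foxa2 fell by 0.89 ± 0.07 (limma adjusted p = 0.0125). Glis3, whose loss causes neonatal diabetes in people and mice, read 7.85 and 7.81 with AdmiR7a and 7.74 with AdmiR7b, against 8.65 with AdGFP. Glis3 fell by 0.85 ± 0.08 (limma adjusted p = 0.0132).

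Other probe sets of the same genes, where the array carried them, were also lower. Pdx1, Insm1, Isl1 and Neurod1 had 2 probe sets each and Pax6 had 5, and 16 of the 18 probe sets passed the filter in MIN6. All 16 were lower than AdGFP on each miR-7 array, by 0.40 to 1.08 on average. These 16 belong to 10 genes, and the share of all probe sets lower on all 3 miR-7 arrays was not worked out. Of all genes it was 32.9%. In a limma fit with every probe set tested on its own, 13 of the 16 fell, against 9.41% of 18001 probe sets. Each of the 10 genes had at least 1 probe set that fell in that fit, and 3 probe sets did not pass. A count of at least 1 favours genes with several probe sets, and the matching share of all genes was not worked out.

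For Insm1 and Isl1 the second probe set passed where the first did not. The second Insm1 probe set, 1421399_at, read 11.39 and 11.40 with AdmiR7a and 11.40 with AdmiR7b, against 12.28 with AdGFP. Here the AdmiR7a arrays did not part, and it fell by 0.88 ± 0.07 (adjusted p = 0.0217 in the limma fit of probe sets), while 1455865_at gave adjusted p = 0.113 there. The second Isl1 probe set, 1422720_at, read 11.66 and 11.63 with AdmiR7a and 11.70 with AdmiR7b, against 12.07 with AdGFP. It fell by 0.40 ± 0.07 (limma adjusted p = 0.0412), about as much as the first, whose miR-7 arrays were more spread (SD 0.13, against 0.0335 for the second).

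For Pdx1, the second probe set fell by 0.92 ± 0.07 (limma adjusted p = 0.0221), and the second Neurod1 probe set fell by 0.55 ± 0.10 (limma adjusted p = 0.0418). Of the other Pax6 probe sets, 1452526_a_at read 8.71 and 8.58 with AdmiR7a and 8.16 with AdmiR7b, against 9.56 with AdGFP (-1.08 ± 0.25, limma adjusted p = 0.0631). The weak Pax6 probe set 1425960_s_at read 4.23 and 4.15 with AdmiR7a and 4.14 with AdmiR7b, against 4.97 with AdGFP, and fell by 0.80 ± 0.08 (limma adjusted p = 0.0227) at a level near the filter. The remaining 2 Pax6 probe sets lay below 4 on every array and carry no difference that can be read.

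**Figure D2:**
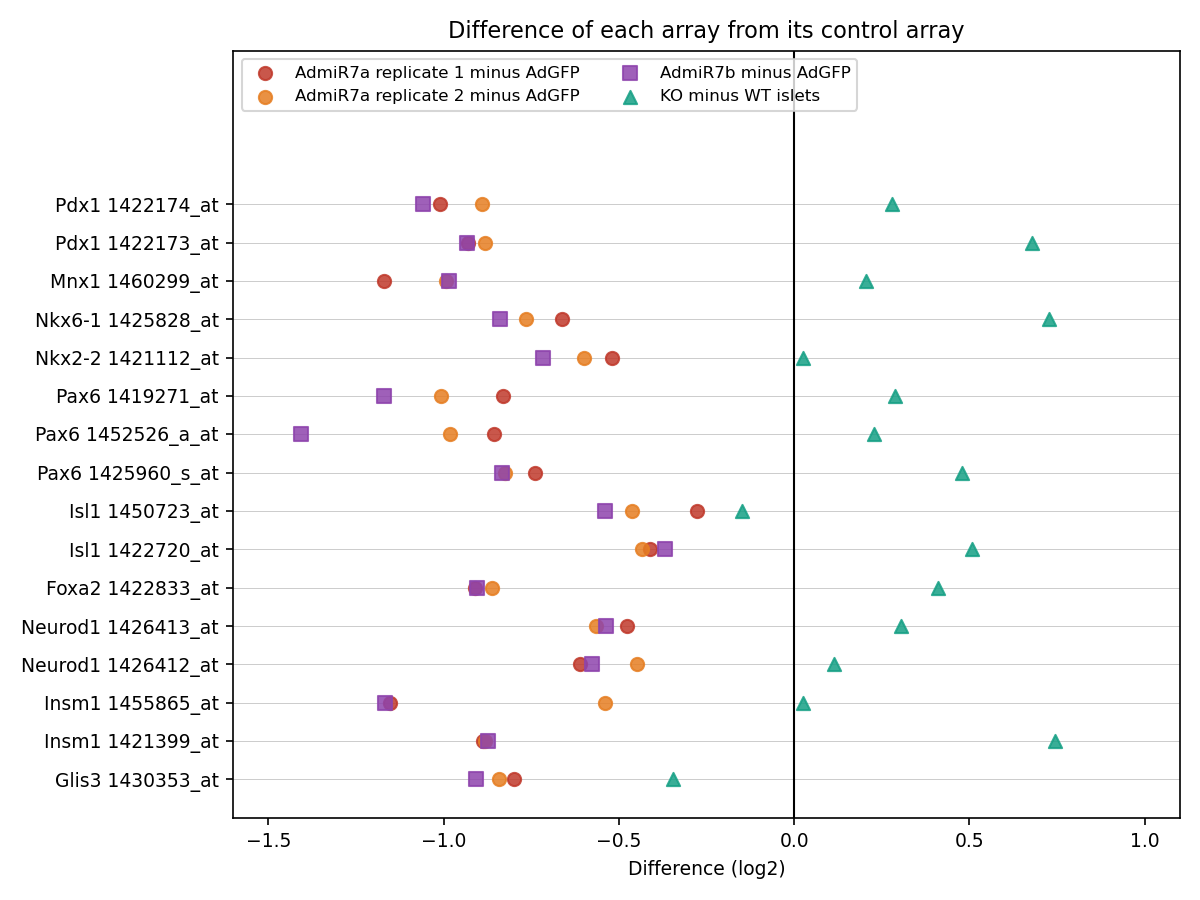
Difference in log2 intensity (x axis) of each miR-7 array from AdGFP and of KO from WT islets for the 16 probe sets above the filter (rows); each point is 1 array minus its control array. All miR-7 points lie left of 0, and 14 of the 16 islet triangles lie right of 0, the exceptions being 1 Isl1 probe set and Glis3. The 16 probe sets belong to 10 genes.

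The AdmiR7a arrays were also set against AdGFP alone, with 1 residual degree of freedom. The median of the 10 genes was -0.83 for AdmiR7a minus AdGFP, and 8 of the 10 were lower at an unadjusted p under 0.05, against 16.2% of all genes. None passed after adjustment: limma called 0 of the 10 and 0 of 10368 genes (0.0%), with adjusted p of the 10 between 0.0667 and 0.212 and 3812 genes at an unadjusted p under 0.05. For AdmiR7a 8 of the 10 passed as lower with the filter at 6, with quantile normalization and with centred arrays, settings under which 9.2%, 10.3% and 11.7% of all genes did.

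AdmiR7b, with 1 array, was set beside AdGFP by size only. On it 3 genes were at least 1 (log2) lower, Pax6 (-1.17), Insm1 (-1.17) and Pdx1 (-1.06), where 4.26% of all genes were that much lower. At a size of 0.58, 8 of the 10 were lower, against 11.2% of all genes, and Neurod1 (-0.54) and Isl1 (-0.54) were the others. The 10 genes had a median of -0.91 with AdmiR7b and of -0.83 with AdmiR7a, both read from the same AdGFP array.

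The vectors were compared directly, without the AdGFP array in the difference. AdmiR7b was lower than the mean of the AdmiR7a arrays for 9 of the 10 genes, with a median of -0.12, where 44.6% of all genes were lower and their median was 0.02; Mnx1 was the exception (0.10 ± 0.12). The median of the 10 was -0.075 without AdmiR7a replicate 1 and -0.078 with averaged probe sets. The widest gaps were those of Insm1 (-0.32 ± 0.34) and Pax6 (-0.25 ± 0.12), both SE. The Insm1 gap was -0.63 without AdmiR7a replicate 1 and -0.014 without AdmiR7a replicate 2, and its other probe set showed 0.01. In limma none of the 10 passed, with 0 at an unadjusted p under 0.05, where 5.86% of all genes were, and adjusted p between 0.737 and 0.970. This contrast called 0.0% of all genes and has 1 residual degree of freedom, so it does not show that the vectors act alike.

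In islets lacking miR-7a2 in beta cells, 8 of the 10 genes were higher than in WT islets and 2 lower, where 44.7% of 10567 genes were higher. The median difference was 0.24 (log2), against -0.03 for all genes, of which 15.6% lay at or above the median of the 10. Only 1 of the 10, Nkx6-1, differed by 0.58 or more, where 4.11% of genes were that much higher and 4.72% that much lower. At a size of 1 none of the 10 was counted (0 genes), where 1.36% of genes were higher and 1.29% lower. With 1 array per genotype there was no replicate check and no test, and in whole islets fewer cells of a type and less RNA per cell cannot be told apart.

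Nkx6-1 read 11.56 in KO and 10.83 in WT islets, a difference of 0.73 or 1.65-fold. Foxa2 read 11.69 in KO and 11.28 in WT islets (0.41), and Neurod1 13.74 in KO and 13.43 in WT islets (0.31). The spread between islet samples of 1 genotype is not known. Pax6 read 13.17 in KO and 12.88 in WT islets (0.29), Pdx1 12.09 in KO and 11.81 in WT islets (0.28) and Mnx1 9.21 in KO and 9.01 in WT islets (0.21). Insm1 (14.61 in KO and 14.58 in WT islets) and Nkx2-2 (11.58 in KO and 11.56 in WT islets) were nearly equal. Glis3 was lower in KO, at 9.19 in KO and 9.54 in WT islets (-0.35), and Isl1 read 13.14 in KO and 13.29 in WT islets (-0.15).

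Probe sets of 1 gene gave unlike sizes in islets, so these values depend on which is read. Of the 16 probe sets above the filter 14 were higher in KO and 2 lower, and 3 were higher by 0.58 or more. These 16 probe sets belong to 10 genes, and the shares over all probe sets were not worked out. Across all genes, 44.7% were higher in KO and 4.11% were higher by 0.58 or more. The second Insm1 probe set read 12.78 in KO and 12.04 in WT islets (0.75), where the first showed 0.03. The second Pdx1 probe set read 8.02 in KO and 7.34 in WT islets (0.68), where the first showed 0.28. The second Isl1 probe set read 11.98 in KO and 11.48 in WT islets (0.51), opposite in sign to the first, and the mean of both Isl1 probe sets was 0.18 higher in KO.

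Some technical controls also differed between the islet arrays and others did not. The hybridisation controls averaged 10.45 in KO and 10.47 in WT islets. Gapdh read 0.83 more at its 3' than at its 5' probe set in KO and 0.68 more in WT islets. The 12 probe sets of spiked poly-A transcripts averaged 9.44 in KO and 10.7 in WT islets, and actin read 2.65 more at its 3' than at its 5' probe sets in KO and 2.77 more in WT islets. Summed beta-cell markers (6 named of 7, log2 of the sum) were 17.6 in both KO and WT islets, but this sum is mostly Ins2 and Iapp, which read near the top of the scale. Of the single beta-cell markers, Ucn3 differed by -0.43 and Slc2a2 by 0.34 (KO minus WT). Summed alpha-cell markers were 16.3 in KO and 16.4 in WT islets (3 named of 5), and summed endothelial markers 10.8 in KO and 11.1 in WT islets (6 of 6). The alpha-cell sum is nearly all Gcg, in islets and in MIN6. On the MIN6 arrays the hybridisation controls averaged 12.2, 12.2 and 12.3 with miR-7, against 12.1 with AdGFP. The poly-A controls averaged 7.59, 7.68 and 7.76 with miR-7, against 7.69 with AdGFP. Actin read 1.48, 1.48 and 1.43 more at its 3' than at its 5' probe sets with miR-7, against 1.48 with AdGFP. The 18S probe sets averaged 13.63, 13.63 and 13.89 with miR-7, against 13.99 with AdGFP, and 14.2 in KO and 13.8 in WT islets. Summed alpha-cell markers there were 12.7, 12.9 and 12.8 with miR-7, against 13.4 with AdGFP, and summed endothelial markers 8.41, 8.30 and 8.39 with miR-7, against 7.63 with AdGFP, with Pecam1, Kdr, Cdh5 and Tek below 4. The part of these values in the differences of the 10 genes was not tested.

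Of the 8 genes that fell with miR-7 in MIN6, 7 were higher in KO than in WT islets, the exception being Glis3. Across all genes that fell and were also tested in islets, 68.2% (782 of 1146) were higher in KO. The MIN6 and islet differences share no array. Insm1, which did not pass in MIN6, was 0.03 higher in KO, and Isl1 was lower in both by the probe set with the higher mean.

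**Figure D3:**
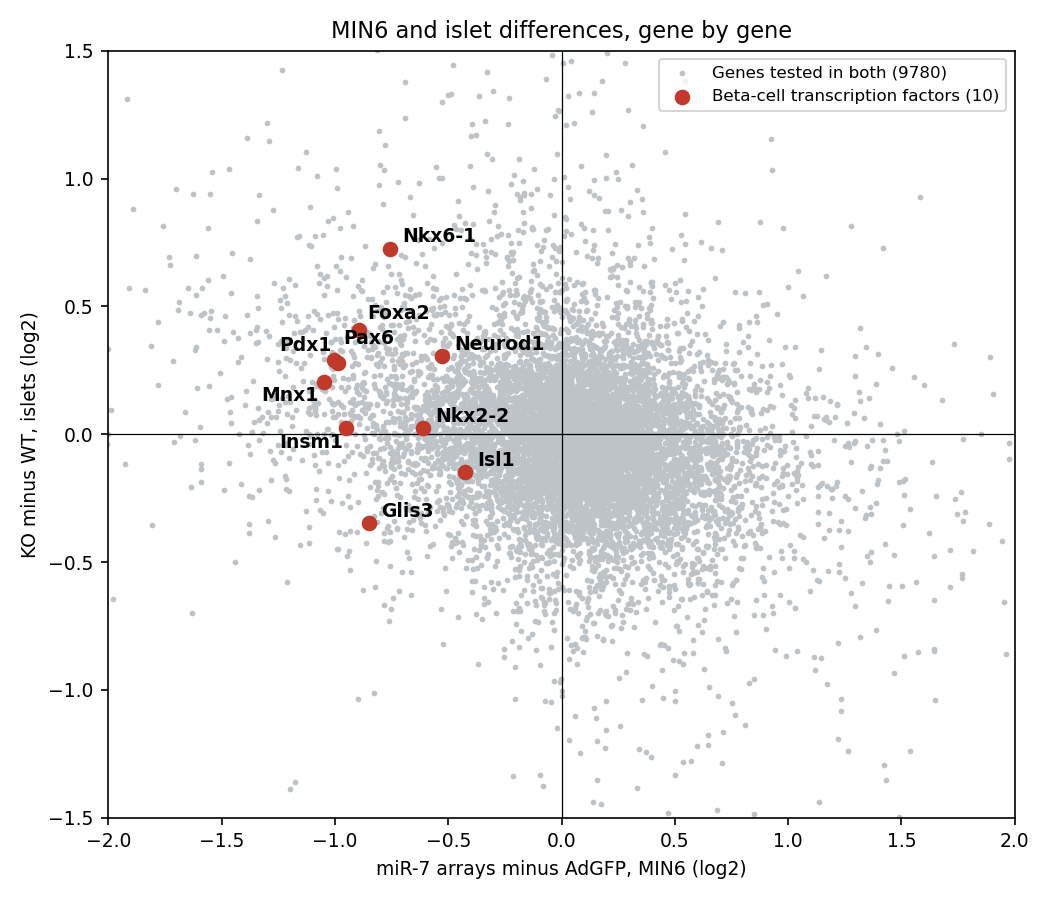
Each point is 1 of 9780 genes tested in both systems, with the pooled MIN6 difference between miR-7 and AdGFP on the x axis and the islet difference between KO and WT on the y axis (both log2); 86 genes lie outside the plotted range. The 10 named genes all lie left of 0, with Nkx6-1 highest and Glis3 lowest on the y axis.

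The level of these genes in the cell line and in the tissue is a description only, since the arrays differ in much else and whether they were normalized together is not stated. Pdx1 stood higher in every MIN6 array than in both islet arrays, by both probe sets: AdGFP exceeded WT islets by 1.38 and 2.87 (log2). The closest arrays were almost equal on 1422174_at, the probe set with the higher mean: AdmiR7b read 12.13 and KO islets 12.09. For 5 other probe sets every MIN6 array was lower than both islet arrays: those of Nkx2-2, where AdGFP minus WT islets was -1.26, and Glis3 (-0.89), 1 of Pax6 (-0.78), 1 of Insm1 (-0.41) and 1 of Isl1 (-0.18). For the other 9 probe sets above the filter the MIN6 and islet values overlapped. The share of all probe sets that part or overlap in this way was not worked out, so these counts cannot be compared with those of other genes.

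Of 38 other islet and pancreas transcription factors listed, 16 were tested in MIN6, of which 2 fell and 2 rose, with a median of -0.10, where 11.9% of all genes fell and 14.3% rose. This list too was chosen with earlier results of these data known, so its contrast with the members is a description only. St18, a zinc-finger gene of the Myt1 family, fell by 1.24 ± 0.12 (limma adjusted p = 0.0132), and the estrogen-related receptor gene Esrrg fell by 0.98 ± 0.18 (limma adjusted p = 0.0325). The forkhead gene Foxa3, a relative of Foxa2, rose by 1.27 ± 0.12 (limma adjusted p = 0.0132): it read 8.04 and 7.94 with AdmiR7a and 8.19 with AdmiR7b, against 6.79 with AdGFP. Hnf4a, a nuclear receptor gene, rose by 0.68 ± 0.12 (limma adjusted p = 0.0287). In islets, 7 of 18 of these genes were higher and 10 lower in KO, where 44.7% of all genes were higher. The largest differences were those of Hnf4a (7.45 in KO and 8.92 in WT islets) and Mlxipl, the glucose-sensing factor ChREBP (11.65 in KO and 12.43 in WT islets). The progenitor factor Neurog3 came next (7.29 in KO and 6.65 in WT islets).

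Of 27 cofactors and DNA-binding partners listed, 25 were tested in MIN6, of which 5 fell and 3 rose, with a median of 0.08, against the same 11.9% and 14.3% of all genes. The E proteins pair with Neurod1 on DNA, and Tcf12 fell by 1.08 ± 0.11 (limma adjusted p = 0.0132) and Tcf4 fell by 0.90 ± 0.13 (limma adjusted p = 0.0214), while Tcf3 stood at 0.44 ± 0.12 (limma adjusted p = 0.0654). Tcf12 read 10.97 and 10.83 with AdmiR7a and 10.78 with AdmiR7b, against 11.94 with AdGFP, and 11.64 in KO and 10.98 in WT islets. Pbx3, whose family binds with Pdx1, fell by 0.79, the chromatin remodeller gene Smarca2 fell by 0.53 and the deacetylase gene Hdac1 fell by 0.47. The methyltransferase gene Setd7, a partner of Pdx1, rose by 0.73 ± 0.08 (limma adjusted p = 0.0144), and the demethylase gene Kdm1a (0.44) and the deacetylase gene Hdac2 (0.38) were the others that rose. In islets 14 of 26 were higher and 12 lower in KO, where 44.7% of all genes were higher. The LIM-only gene Lmo4 (0.37) and the homeobox gene Meis1 (-0.37) differed most beside Tcf12.

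Genes that these factors are known to drive in beta cells included 9 of 21 tested that fell and 0 that rose, with a median of -0.37, against 11.9% of all genes that fell and 14.3% that rose. The largest falls were those of Ero1b, which oxidizes proinsulin (fell by 1.30 ± 0.13), Gjd2, the gap junction protein of beta cells (fell by 1.29 ± 0.12), and Ucn3, a peptide that marks mature beta cells (fell by 1.15 ± 0.08). Abcc8, the sulfonylurea receptor, fell by 0.82, and Trpm5, a cation channel that supports secretion, fell by 0.79. Slc30a8, which loads zinc into insulin granules, fell by 0.73. Their limma adjusted p lay between 0.0115 and 0.0182. The hormone genes Ins2 (0.06 ± 0.12, limma adjusted p = 0.723) and Iapp (-0.01 ± 0.08, limma adjusted p = 0.912) did not pass. With AdGFP they read 15.76 and 16.14, near the highest value of the scale (16.4), where a change may not show. In KO islets 13 of 22 exceeded WT and 9 lay below it (median 0.06), where 44.7% of all genes were higher. The incretin receptor gene Glp1r (8.70 in KO and 7.70 in WT islets) was higher and Ucn3 (12.17 in KO and 12.60 in WT islets) lower. Gipr, also an incretin receptor gene, was higher (5.06 in KO and 4.57 in WT islets), at levels near the filter of 4.

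**Figure D4:**
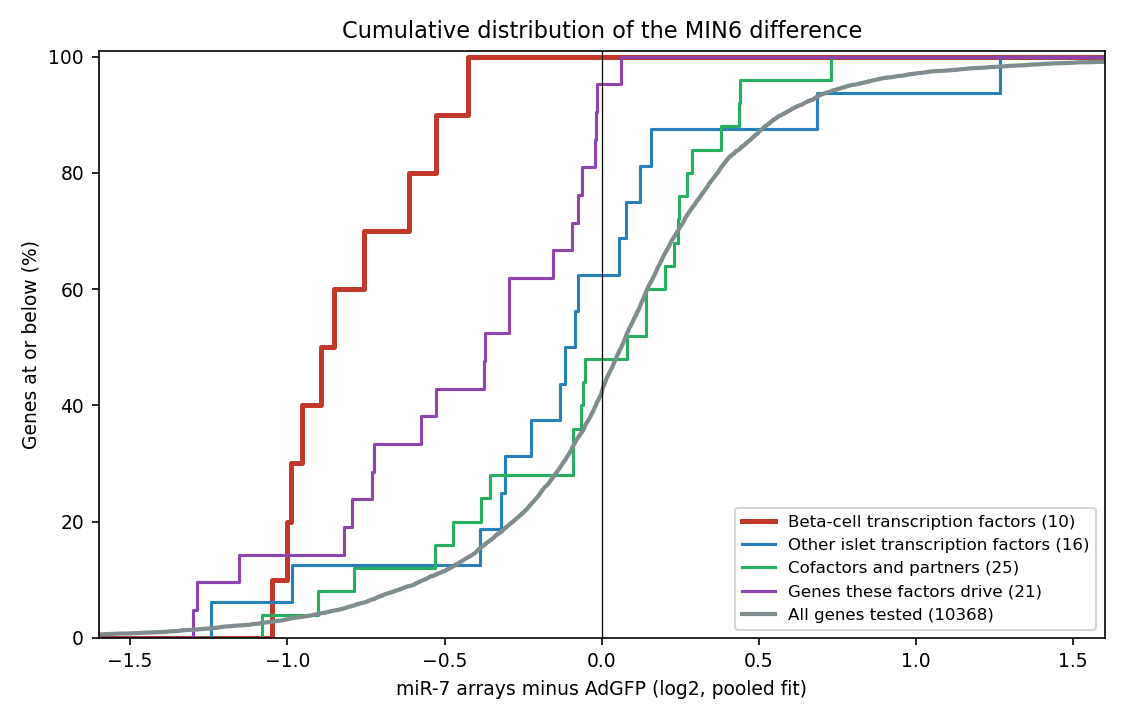
Share of genes (y axis, percent) at or below each pooled MIN6 difference between miR-7 and AdGFP (x axis, log2) for the 10 beta-cell transcription factor genes, 16 other islet transcription factors, 25 cofactors, 21 genes these factors drive and all 10368 genes tested. The 10 genes all lie at or below -0.43, where the medians of the genes they drive and of all genes are -0.37 and 0.06. The lists were chosen with earlier results of these data known.

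Outside the lists, the genes nearest to the median profile of the 10 were Mtmr1, a phosphoinositide phosphatase gene of the myotubularin family, Tomm22, a receptor of the mitochondrial import channel, Tnfrsf21, the gene of death receptor 6, Kmt5a, a histone H4 methyltransferase gene, and Kctd8. Nearness was the Euclidean distance over 4 differences (each miR-7 array minus AdGFP, and KO minus WT), and it lay between 0.0604 (Mtmr1) and 0.121 (Kctd8) for these 5. Mtmr1 fell by 0.82 (limma adjusted p = 0.0132) and Kctd8 fell by 0.80 (limma adjusted p = 0.0179) in the pooled fit, values that their choice by profile fixes. Among the 10 genes themselves Foxa2 (0.202) and Pdx1 (0.265) lay nearest to that median and Isl1 (0.832) farthest.

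Promoters are shown as examples for Pdx1, Mnx1 and Nkx6-1, which all fell and each have 1 start site in the RefSeq table (GRCm38.p6). Glis3, Neurod1 and Nkx2-2 also fell with 1 start site each and are not shown. Capitals mark the E-box CANNTG, the kind of site Neurod1 binds, and the homeodomain core TAAT on either strand. Each is the 250 bases before the start, 5' to 3' on the strand of the gene: Pdx1 at chr5:147269847-147270096 (plus), Mnx1 at chr5:29478471-29478720 (minus) and Nkx6-1 at chr5:101664712-101664961 (minus).
Pdx1: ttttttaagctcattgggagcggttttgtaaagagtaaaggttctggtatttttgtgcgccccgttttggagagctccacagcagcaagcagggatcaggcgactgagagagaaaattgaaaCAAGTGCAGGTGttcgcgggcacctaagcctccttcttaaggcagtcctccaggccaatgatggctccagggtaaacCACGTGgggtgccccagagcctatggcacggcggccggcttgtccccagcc
Mnx1: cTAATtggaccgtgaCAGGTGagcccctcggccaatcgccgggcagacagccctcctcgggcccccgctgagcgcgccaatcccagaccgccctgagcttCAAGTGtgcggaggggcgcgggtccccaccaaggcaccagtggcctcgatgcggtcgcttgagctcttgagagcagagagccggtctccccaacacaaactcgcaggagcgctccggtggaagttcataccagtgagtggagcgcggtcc
Nkx6-1: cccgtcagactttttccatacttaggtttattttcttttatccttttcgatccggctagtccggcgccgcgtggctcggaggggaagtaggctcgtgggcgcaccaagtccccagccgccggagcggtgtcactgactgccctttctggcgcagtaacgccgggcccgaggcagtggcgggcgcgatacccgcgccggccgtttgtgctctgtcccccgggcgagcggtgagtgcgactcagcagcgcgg
Pdx1 held 3 E-boxes and 0 homeodomain cores, Mnx1 held 2 and 1, and Nkx6-1 held 0 of either. In these 3 windows no base belonged to both motifs. Over the 12 start-site windows of 9 of the genes (Insm1 was not matched), 8 held an E-box and 7 a homeodomain core, against 66.2% and 54.9% of 32851 windows of the same length. The windows of these genes had a median GC content of 63.0%, against 52.4% for all. A match is a description of these letters and not a binding site.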

How the data were processed

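RNA of 6 samples was measured on mouse expression arrays of 45101 probe sets. The deposited values are log2 intensities that the authors made with GCRMA and the affy package, per the submitters' processing notes, which give no versions; GCRMA corrects the background from probe sequence, quantile-normalizes and summarizes per probe set. Which arrays were normalized together is not given in the sources used here. Of the 45101 probe sets, 34958 had 1 gene symbol, 932 several and 9211 none, and the 64 controls are counted among these. Those with 1 symbol, without controls, were grouped by Entrez identifier into 18194 genes. Symbols were updated through RefSeq (GRCm38.p6, 34754 found). Each gene took its probe set with the highest mean in MIN6 or islets, and genes below a mean of 4 were left out.

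Groups came from the labels. limma 3.58.1 (R 4.3.3) was fitted on all genes, two-sided, with Benjamini-Hochberg adjustment: miR-7 arrays pooled against AdGFP (2 residual degrees of freedom), and a mean per vector (1). Comparisons of 1 array against 1 were made by size, with no p. Simulated data with 200 genes of known change were used to check the script. Signal and the number of arrays limit the precision. No replicate pairing was used. Alternatives were the probe set rule, filter, normalization, prior and left-out arrays. Members and lists were chosen with earlier results of these data known. Named genes were the 10 members, per other list the 6 largest pooled differences past the threshold and the 3 largest in islets, and the 5 nearest profiles; Tcf3, Kdm1a, Hdac2, Ins2, Iapp and Slc2a2 were named after their values were seen. Mafa, Ins1 and some other listed genes had no named probe set and were not analysed here.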

Additional observations from a re-analysis of the deposited data

How the results depend on the processing

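The pooled miR-7 difference of each of the 10 genes kept its sign under every alternative run. The count of the 10 that fell (8) became 10 with the mean of a gene's probe sets (Insm1 adjusted p = 0.0223, Isl1 adjusted p = 0.0293, limma), 9 with a filter at 6 (Insm1 adjusted p = 0.0438), 2 with no filter on low values, and 0 to 0 without AdmiR7a replicate 1, AdmiR7a replicate 2 or AdmiR7b, each of which leaves 1 residual degree of freedom. All genes past the threshold (2716) became 981 with no filter and 0 to 0 without one array, and the median of the 10 (-0.87) lay between -0.88 and -0.83 without one array. For AdmiR7a minus AdGFP, the count of the 10 (0) became 7 with the mean of a gene's probe sets and 8 with a filter at 6, quantile normalization or centring, and that of all genes (0) became 967, 1737, 2238 and 2317 under these and 350 with no filter. Its median (-0.83) lay between -0.81 and -0.80 without one AdmiR7a array, where no test is possible. For AdmiR7b minus AdmiR7a the median (-0.12) lay between -0.09 and -0.08, and the sign turned for 2 genes: Foxa2 lay between -0.043 and 0.0061 (positive without AdmiR7a replicate 2) and Neurod1 between -0.0606 and 0.0284 (positive without AdmiR7a replicate 1). For AdmiR7b minus AdGFP, 3 of the 10 were past a size of 1 and 8 past 0.58, 1 with averaged probe sets, and 0 by a limma contrast that borrows the AdmiR7a spread; all genes (842) became 2417, 557 and 0. In islets, all genes past a size of 1 (280) became 933 at 0.58, 183 with averaged probe sets, 423 with no filter and 134 with a filter at 6; of the 10, 1 was higher at 0.58, and Isl1 turned to 0.18 with averaged probe sets. The cause of these changes was not tested. No paired analysis was possible because only AdmiR7a has more than 1 array. Precision is limited by 1 AdGFP, 1 KO and 1 WT array, and by signal for the Pax6 probe sets near the lower end of the scale.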
